A study of Drosophila melanogaster with 2 samples.

Results

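The 10 genes spi, Krn, vn, grk, rho, Egfr, aos, sty, raskol and Ras85D of Drosophila melanogaster encode ligands, a protease, the receptor, inhibitors, a GTPase-activating protein and the Ras GTPase of epidermal growth factor (EGF) receptor signalling. They were chosen by name for these roles and are 10 of 13945 protein-coding genes. Their occupancy was read from chromatin immunoprecipitation sequencing (ChIP-seq), which recovers the DNA bound by a tagged protein and maps it to the genome. The tagged protein was the product of CG15812 with green fluorescent protein (GFP) at its C-terminal end, expressed from a stable transgene. Whole embryos of both sexes, collected 0 to 24 h after laying, gave 2 biological replicates, which form the only group. Whole embryos mix all cell types and embryonic stages, so a peak cannot be assigned to a tissue or a time. The labels name the target pfk, in lower case. To keep it apart from the annotated symbol Pfk of another gene, the protein is called the CG15812 product here. A free-text label calls both samples input, whereas the assay title, the antibody field and a separately named control describe immunoprecipitated samples, and they were treated as such.

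Every summit, the position of highest signal in a called region, was collected if it lay within 1 kb of an annotated transcription start site (TSS) of a gene or inside the gene body. The stringent list held 2886 peaks kept by the authors at their threshold of irreproducible discovery rate (IDR), a filter on how well replicates rank the same peaks. A relaxed list of 30000 regions was given for each replicate and for both replicates pooled, and it includes background. The signal value of a region is the authors' own score, and its normalization was not given. Signals of the replicates and of the pooled list are on different scales, so ranks are given beside them. The IDR peaks were the 2886 pooled regions of highest signal, and the lowest of them had a signal of 128. The depth of sequencing is unknown. By the same rule, CG15812 itself had a highest pooled signal of 1783, with 921 in replicate 1 and 885 in replicate 2. This placed CG15812 at position 179 among all protein-coding genes.

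The EGF receptor is a receptor tyrosine kinase that activates Ras and a kinase cascade when a ligand binds it. In the fly, Spitz and Keren are made as membrane-anchored precursors that Rhomboid proteases cut, Vein is secreted as an active neuregulin-like ligand, and Gurken signals from the oocyte to the follicle cells of the ovary. Argos and Sprouty dampen the response from outside and inside the cell, and RasGAPs return Ras to its inactive form. In embryos the pathway is known for patterning the ventral ectoderm and for its roles in glia, muscle founders and the trachea.

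The sequences at the strongest IDR summit of the members show where the 6-base sequence GGAACG, or CGTTCC on the other strand, occurred. GGAACG is the sequence most enriched at the IDR summits in an earlier analysis of these same peaks, so its presence at a strong summit is not independent of the choice of the sequence. The sequences are from the RefSeq Release 6 assembly (dm6), plus strand, 5′ to 3′, with GGAACG or CGTTCC in capitals. The first 3 are the summits of highest signal at spi (chr2L:19575627-19575667) and raskol (chrX:17723058-17723158) and the strongest IDR summit of raskol over 1 kb from a TSS, which lies in an intron (chrX:17733994-17734094). The others are from sty (chr3L:3418501-3418541), Ras85D (chr3R:9513148-9513188), Krn (chr3L:17653639-17653679) and vn (chr3L:5824266-5824306).
spi: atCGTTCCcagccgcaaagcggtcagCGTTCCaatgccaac
raskol: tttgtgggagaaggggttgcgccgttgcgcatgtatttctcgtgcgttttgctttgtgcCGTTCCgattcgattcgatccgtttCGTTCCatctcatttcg
raskol intron: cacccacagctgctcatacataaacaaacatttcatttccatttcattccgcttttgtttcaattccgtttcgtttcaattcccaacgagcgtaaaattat
sty: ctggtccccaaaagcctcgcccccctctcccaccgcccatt
Ras85D: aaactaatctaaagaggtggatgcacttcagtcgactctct
Krn: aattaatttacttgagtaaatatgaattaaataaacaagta
vn: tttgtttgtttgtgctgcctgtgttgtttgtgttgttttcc

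GGAACG was found within 50 bp of 2 of the 16 IDR summits of the members, the highest at spi and the highest at raskol, and each window held 2 copies. Among the 2886 highest regions of a single replicate the count of such member summits was 2 in replicate 1 and 4 in replicate 2, where a summit of Egfr and the third TSS of raskol were added. All IDR summits held it in 14.7% of such windows and held at least 2 copies in 3.53%. The sequence lay within 50 bp of 3.17% of protein-coding TSSs and of 3.22% of the pooled summits below the IDR peaks. The strongest summits of sty, Ras85D, Krn and vn held 0 copies and differed widely in base composition, with a G+C content of 68.3% in the 41 bp at sty and 14.6% at Krn.

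An IDR summit was found at 6 of the 10 genes, namely spi, Krn, vn, sty, raskol and Ras85D, where 17.9% of all protein-coding genes had one. Within 1 kb of a TSS it was found at 5 of the 10, all but vn of those 6, beside 16.0% of all protein-coding genes. The members ranged from raskol, at position 9 of 13945 genes by highest pooled signal, to grk, at position 8806. Ligand genes had an IDR summit in 3 of 4 cases and inhibitor genes in 1 of 2. The protease gene rho and the receptor gene Egfr had 0, and the RasGAP gene and the Ras gene each had at least 1. Each role rests on 1 to 4 genes, so no difference between roles was tested. The promoter count of 5 was 3 with a distance of 500 bp, where Krn and sty were lost, and 3 with the most upstream TSS of each gene only, where spi and sty were lost. The promoter share of all genes is not given here for these 2 settings, so 16.0% is not their background.

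**Figure D1:**
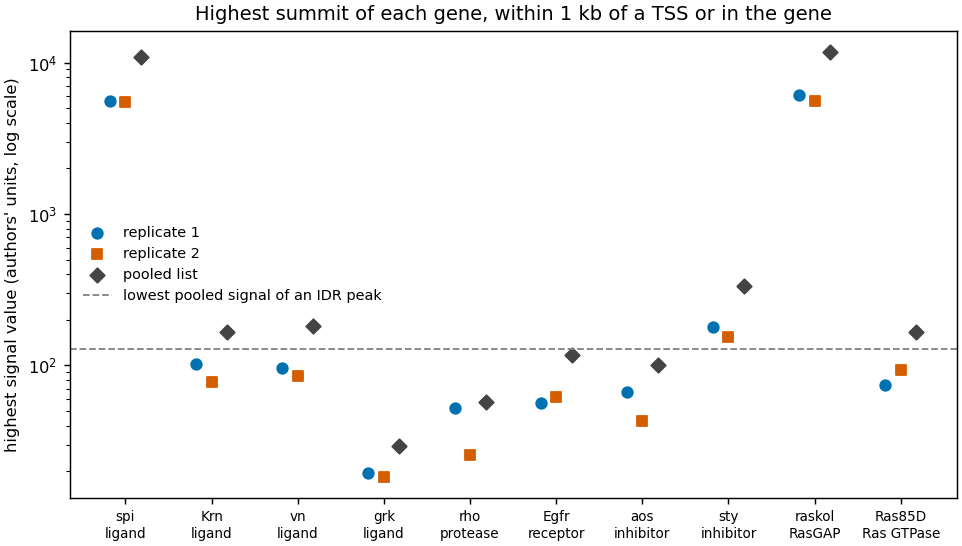
Highest signal of each of the 10 genes within 1 kb of a TSS or in the gene body (authors' signal units, log scale), for replicate 1 (circles), replicate 2 (squares) and the pooled list (diamonds). The dashed line is the lowest pooled signal of an IDR peak, 128. The pooled values of spi and raskol exceed 10000, those of sty, vn, Ras85D and Krn lie from 165 to 333, and those of Egfr, aos, rho and grk lie below the line.

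Among the ligand genes, spi, which encodes the TGF-alpha-like ligand Spitz, had the highest signal. The gene (FBgn0005672, dm6 arm 2L, 19567900 to 19577315, minus strand) has 3 annotated TSSs. Its highest summit lay in an intron, 60 bp upstream of the second TSS, with a signal of 5579 in replicate 1 and 5466 in replicate 2, and of 10825 in the pooled list. It ranked 15 in replicate 1, 11 in replicate 2 and 13 among pooled summits, so both replicates placed it near the top, and the replicates differed by 0.03 log2. This is the spi window shown above with 2 copies of CGTTCC.

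Another 3 IDR summits lay at the promoters of spi. In the same called region, which spanned 1861 bp, a summit 276 bp upstream of the second TSS had a signal of 962 in replicate 1 and 1630 in replicate 2, and of 2374 in the pooled list. This summit was higher in replicate 2, and its replicate 1 minus replicate 2 difference of -0.76 log2 was the lowest among the 16 IDR summits of the 10 genes. At the third TSS, a summit 12 bp upstream had a signal of 106 in replicate 1 and 139 in replicate 2, and of 239 in the pooled list. A summit 587 bp downstream of that TSS had a signal of 127 in replicate 1 and 135 in replicate 2, and of 257 in the pooled list. All 4 IDR summits of spi were thus promoter summits, and at least 4 IDR summits were found at 0.645% of all protein-coding genes. The most upstream TSS had no IDR summit: its highest summit, 391 bp upstream, had a signal of 28.4 in replicate 1 and 22.9 in replicate 2, and of 58.5 in the pooled list, and lay 5 bp from the TSS of msb1l.

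The other ligand genes had much lower signals. Krn, the gene of the Spitz-like ligand Keren (FBgn0052179, arm 3L, 17649562 to 17654280, minus strand), had its IDR summit 621 bp downstream of its TSS. The signal there was 103 in replicate 1 and 63.2 in replicate 2, with 165 in the pooled list. It was higher in replicate 1 by 0.70 log2. A second summit, 127 bp upstream of the TSS, had a signal of 27.0 in replicate 1 and 77.8 in replicate 2, and of 125 in the pooled list, just below the lowest IDR peak. These are the nearest summits of each replicate, and another replicate 1 summit within 200 bp, 11 bp upstream of the TSS, had a signal of 56.2. The replicates thus placed the stronger summit on opposite sides of the TSS. Krn shares this TSS with Ndfip, and the TSS of CG7484 also lay within 1 kb of the IDR summit, so the signal cannot be assigned to Krn alone. The gene body and flanks of Krn held 0 copies of GGAACG.

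Vein is encoded by vn (FBgn0003984, arm 3L, 5813338 to 5845664, minus strand), whose single IDR summit lay in an intron 21378 bp downstream of its only TSS. The summit had a signal of 96.4 in replicate 1 and 84.9 in replicate 2, and of 181 in the pooled list, so the replicates differed by 0.18 log2. An IDR summit only in the gene body was found at 1.90% of all protein-coding genes. At the vn promoter, the highest summit was 77 bp downstream of the TSS, with a signal of 32.9 in replicate 1 and 24.1 in replicate 2, and of 59.3 in the pooled list. Signal at the promoter was thus well below that in the intron in all 3 lists.

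The ligand gene grk (FBgn0001137, arm 2L, 8431086 to 8433598, minus strand), which encodes Gurken, had no summit within 1 kb of its TSS in any of the lists. A single pooled summit lay in a coding exon, 1712 bp downstream of the TSS, with a pooled signal of 29.2 at rank 26168 and a −log10 q-value of 0.441. The replicate 2 signal there was 18.4. In replicate 1 the highest summit of the gene, 1252 bp downstream of the TSS, had a signal of 19.6, and it did not match the pooled summit within 200 bp. These values lie near the bottom of the relaxed lists, where the lowest pooled signal was 26.5.

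The protease gene rho (FBgn0004635, arm 3L, 1463811 to 1468944, plus strand) encodes Rhomboid, the intramembrane protease that releases Spitz. It had 0 IDR summits and 2 pooled summits. Both of these also lay inside the gene Ptp61F, so the signal cannot be assigned to rho alone. The higher lay 2 bp upstream of the TSS, with a signal of 52.1 in replicate 1 and 57.7 in the pooled list, and no replicate 2 summit lay within 200 bp. The highest summit of rho in replicate 2, 448 bp upstream, had a signal of 25.5 at rank 13318, against rank 5109 for the summit in replicate 1. The replicates therefore did not share the summit at the rho TSS, and 42.4% of all protein-coding genes had a pooled signal at or above that of rho.

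The receptor gene Egfr (FBgn0003731, arm 2R, 21522420 to 21559977, plus strand) had 0 IDR summits although it held 19 pooled summits over its 37.6 kb. Its highest pooled summit, 28 bp downstream of the first TSS and in a UTR exon, had a signal of 56.6 in replicate 1 and 51.7 in replicate 2, and of 116 in the pooled list. The pooled signal fell short of the lowest IDR peak (128) at rank 3340, and the TSS of CG30289 lay 600 bp away. Its −log10 q-value was 3.95, the highest value in the pooled list and the value of all 16 IDR summits of the members. In replicate 2 a summit 281 bp upstream of the same TSS was higher, with a signal of 62.0 at rank 2846, and GGAACG or CGTTCC lay within 50 bp of it. The second TSS, 24.2 kb downstream, had a summit with a signal of 43.2 in replicate 2 and 54.9 in the pooled list, and no summit in replicate 1. Egfr thus lay just outside the stringent list, and a pooled signal at or above its own was found for 20.2% of all genes and 46.9% of the 1013 genes of 20 kb and over.

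The inhibitor genes differed. The gene of the secreted antagonist Argos, aos (FBgn0004569, arm 3L, 16470386 to 16483650, minus strand), had 0 IDR summits. Its highest pooled summit lay in an intron 3102 bp downstream of the TSS, with a signal of 67.2 in replicate 1 and 37.0 in replicate 2, and of 101 in the pooled list. A summit 33 bp downstream of the TSS was close behind, with a signal of 56.4 in replicate 1 and 43.1 in replicate 2, and of 96.1 in the pooled list. The replicates disagreed on which of these was the highest of the gene: replicate 1 placed the intron summit first and replicate 2 the promoter summit. All 7 pooled summits of aos also lay inside the gene CG33158, so the signal cannot be assigned to aos alone.

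The inhibitor gene sty (FBgn0014388, arm 3L, 3401153 to 3424935, minus strand), which encodes the feedback inhibitor Sprouty, had 1 IDR summit. It lay 560 bp upstream of the second TSS, inside an intron of the longer transcript, with a signal of 179 in replicate 1 and 154 in replicate 2, and of 333 in the pooled list. It ranked 817 in replicate 1, 852 in replicate 2 and 801 among pooled summits, so the lists placed it alike. At the second TSS itself a weaker summit had a pooled signal of 57.0 and held GGAACG within 50 bp. The first TSS, 6.97 kb further upstream, had a signal of 23.7 in replicate 1 and 30.0 in the pooled list, with no summit in replicate 2. In all, 15 pooled summits of sty lay below the IDR peaks, the highest with a signal of 89.1.

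The RasGAP gene raskol (FBgn0261570, arm X, 17710144 to 17752007, plus strand) encodes a GTPase-activating protein of Ras and carried the highest signal of the 10 genes. The summit lay 95 bp upstream of its second TSS, which is 13.1 kb downstream of the first, with a signal of 6118 in replicate 1 and 5598 in replicate 2, and of 11655 in the pooled list. It ranked 11 in replicate 1, 10 in replicate 2 and 10 among pooled summits, and its region spanned 1255 bp. Together with spi, raskol was among the 0.115% of protein-coding genes with a pooled signal of 10000 and over, and 2.21% had a signal of 1000 and over. The first TSS of raskol had a far weaker IDR summit 46 bp upstream, with a signal of 81.6 in replicate 1 and 59.4 in replicate 2, and of 137 in the pooled list, and the TSS of CG8173 lay 445 bp from it. At the third TSS a summit 61 bp upstream had a signal of 109 in replicate 1 and 74.5 in replicate 2, and of 176 in the pooled list. The promoters of the same gene thus differed in pooled signal from 137 to 11655.

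The remaining 5 IDR summits of raskol lay in introns over 1 kb from a TSS. The strongest, 4369 bp upstream of the third TSS, had a signal of 1540 in replicate 1 and 1367 in replicate 2, and of 2888 in the pooled list. It ranked 104 in replicate 1, 110 in replicate 2 and 105 among pooled summits. Its window, shown above, held 0 copies of GGAACG. The other 4 intron summits had pooled signals from 128 to 209. Of the 16 IDR summits of the 10 genes, the summit with the largest difference between the nearest replicate summits, 0.95 log2 higher in replicate 1, lay 1962 bp upstream of the third TSS, with a signal of 89.5 in replicate 1 and 46.3 in replicate 2, and of 159.9 in the pooled list. Another replicate 2 summit within 200 bp was higher, at 69.4. In all, raskol had 8 IDR summits, separated by 1613 to 13010 bp, and at least 8 were found at 0.108% of protein-coding genes. Its 44 pooled summits came to 10.3 per 10 kb, beside a median of 1.96 for the genes of 20 kb and over, and a density at or above that of raskol was found for 0.494% of those genes. Of the 44, 33 had a summit within 200 bp in both replicates. So did 65 of the 113 pooled summits of all 10 genes (57.5%), beside 50.6% of all pooled summits. The 65 include the 33 of raskol, so the share over the 10 genes rests largely on that gene.

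**Figure D2:**
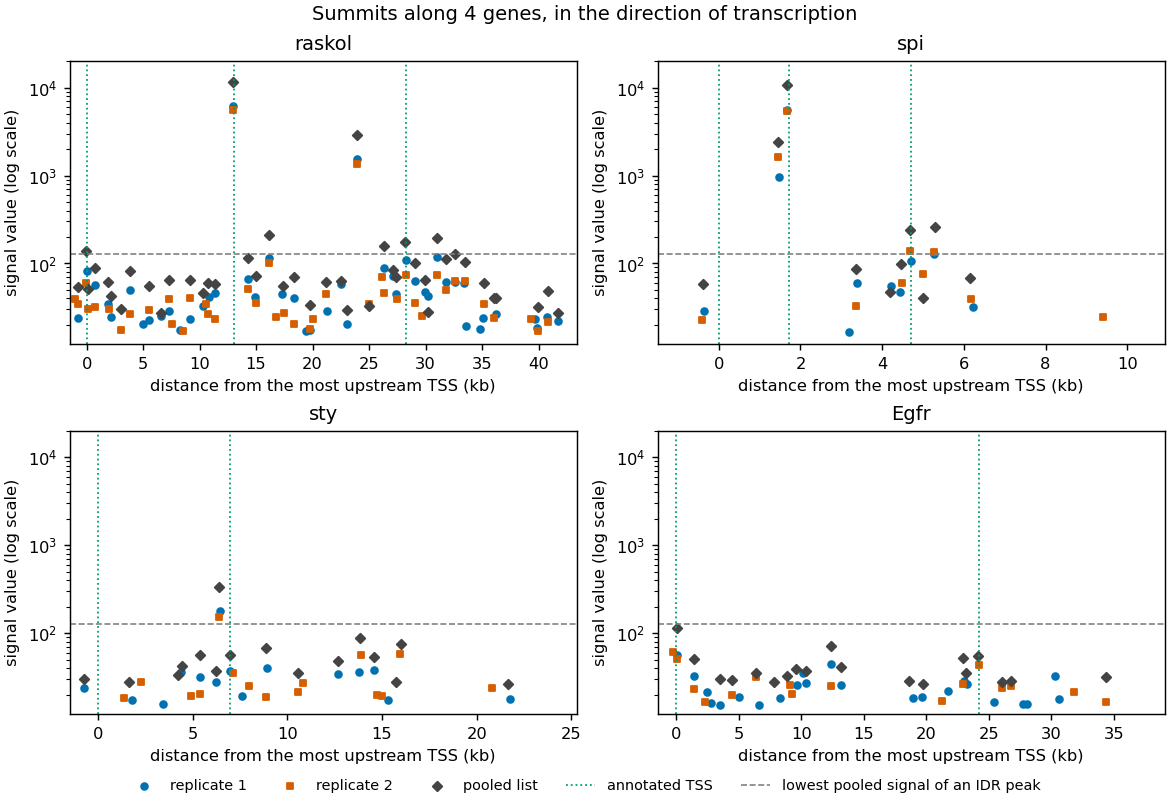
Signal values (authors' units, log scale) of all summits along raskol, spi, sty and Egfr against distance from the most upstream TSS in kb, for replicate 1 (circles), replicate 2 (squares) and the pooled list (diamonds), with annotated TSSs as dotted lines and the lowest pooled signal of an IDR peak as a dashed line. The strongest summits of raskol and spi stand at the second TSS of each, the raskol intron summit of 2888 stands between the second and the third, and at Egfr every pooled summit is below the dashed line.

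Ras85D (FBgn0003205, arm 3R, 9510561 to 9513067, minus strand), the gene of the Ras GTPase itself, had a single pooled summit, which was an IDR summit 101 bp upstream of its TSS. The signal was 74.0 in replicate 1 and 92.7 in replicate 2, with 167 in the pooled list. In replicate 2 it ranked 1596, and in replicate 1 it ranked 2927, just outside the 2886 highest regions of that replicate. The summit lay between Ras85D and its neighbour Rlb1, whose TSS was 159 bp away, so this signal too cannot be assigned to a single gene.

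Over the 10 genes there were 16 IDR summits in 15 called regions, 10 at promoters and 6 over 1 kb from a TSS. Of these, 14 lay in introns and 2 outside the gene, and 5 lay within 100 bp of a TSS. Of the 10 promoter summits, 8 lay upstream of the TSS. Placement is not given here for all 2886 IDR summits, and raskol alone held 8 of the 16. These counts are therefore not shown to be particular to the 10 genes. The median pooled signal of the 16 was 203, beside 201.6 for all 2886 IDR peaks, and 4 of the 16 had a signal of 1000 and over, which 10.6% of all IDR peaks had. These 4 belong to spi and raskol, and the remaining 12 lay between 128 and 333.

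The replicates were compared at these summits, and each of the 16 had a summit of both replicates within 200 bp. Both lists used the same control alignment, and the IDR filter itself draws on the lists of the replicates, so that filter partly fixes a match. The median difference, replicate 1 minus replicate 2, was 0.18 log2 (SD 0.44, range -0.76 to 0.95) at the member summits and 0.21 log2 (SD 0.54) at 2860 matched IDR summits of the whole list. It was higher in replicate 1 at 11 of the 16 (68.8%), beside 70.6% of all. A difference of over 1 log2 was found at 0 of the 16 and at 242 of the 2860.

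**Figure D3:**
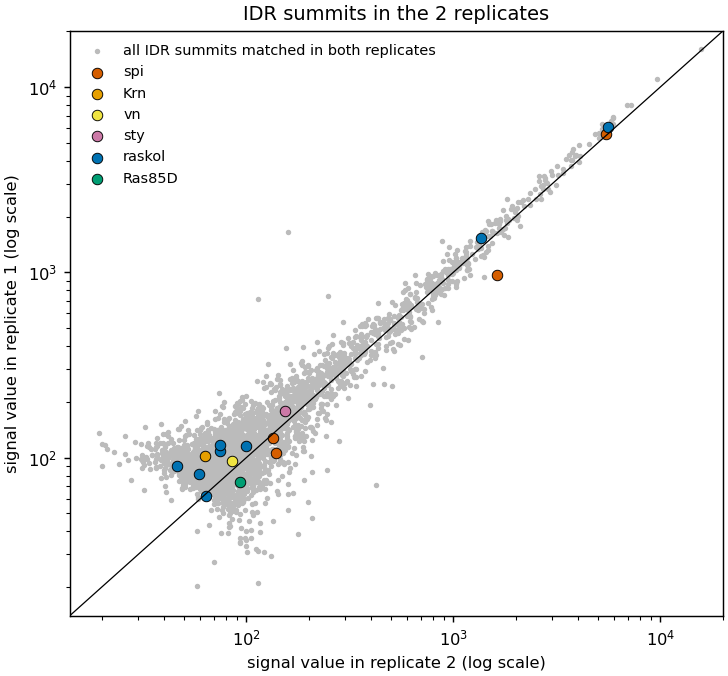
Signal value in replicate 1 against that in replicate 2 (authors' units, both axes log) at every IDR summit matched in both replicates (grey) and at the 16 summits of spi, Krn, vn, sty, raskol and Ras85D (coloured), with the line of equal values. The points of raskol and spi above 1000 lie close to the line, except the second spi summit at 962 in replicate 1 and 1630 in replicate 2.

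The list of each replicate was also read alone. Among the 2886 highest regions of replicate 1, 5 of the 10 genes had a summit, where 18.2% of all genes did, and Ras85D was the IDR gene without one. Among the 2886 highest of replicate 2, 7 of the 10 had a summit, where 17.3% of all genes did, and Egfr was the gene added. By promoter summits alone these counts were 4 in replicate 1, beside 16.2% of all genes, and 6 in replicate 2, beside 15.3%.

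All 10 genes had at least 1 pooled summit in the relaxed list, as did 66.1% of all protein-coding genes, and 9 of 10 had one within 1 kb of a TSS, as did 63.2%. The relaxed lists of replicate 1 and replicate 2 gave all 10 genes a summit each, beside 67.1% and 65.2% of all genes. The median of the highest pooled signal was 166 over the 10 genes and 75.9 over the 9211 protein-coding genes with a pooled summit. The genes rho, Egfr, aos and grk, with relaxed pooled summits and no IDR summit, are among the 48.2% of all genes in this class. The 10 genes held 113 pooled summits in all, of which 97 were below the IDR peaks. Of those 97, 49 (50.5%) had a summit of both replicates within 200 bp, beside 45.5% of all pooled summits below the IDR peaks. The gene raskol alone held 36 of the 97. With IDR peaks included, such matches were uneven between the genes and numbered 33 of 44 at raskol, 8 of 10 at spi and 3 of 3 at Krn. They numbered 1 of 1 at Ras85D, 5 of 10 at vn, 7 of 16 at sty and 3 of 7 at aos. Egfr had 5 of 19, rho 0 of 2 and grk 0 of 1.

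Gene length bears on a rule that counts the whole gene body. Of genes under 5 kb, 12.4% had an IDR summit, of genes of 5 to 20 kb 31.3%, and of genes of 20 kb and over 41.8%. The members with an IDR summit were 2 of 3, 1 of 3 and 3 of 4 in these classes. Within its own class spi was at position 5 of 2471 genes by highest signal, and raskol at position 5 of 1013. Among genes of its class, sty had 15.0% at or above its signal, vn 28.6%, aos 41.8% and rho 65.6%. The short genes Ras85D and Krn had 7.86% and 8.06% of their class at or above them, and grk 54.6%. Pooled summits were also dense at spi, with 9.60 per 10 kb beside a class median of 2.97, and at sty, with 6.46 beside 1.96.

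**Figure D4:**
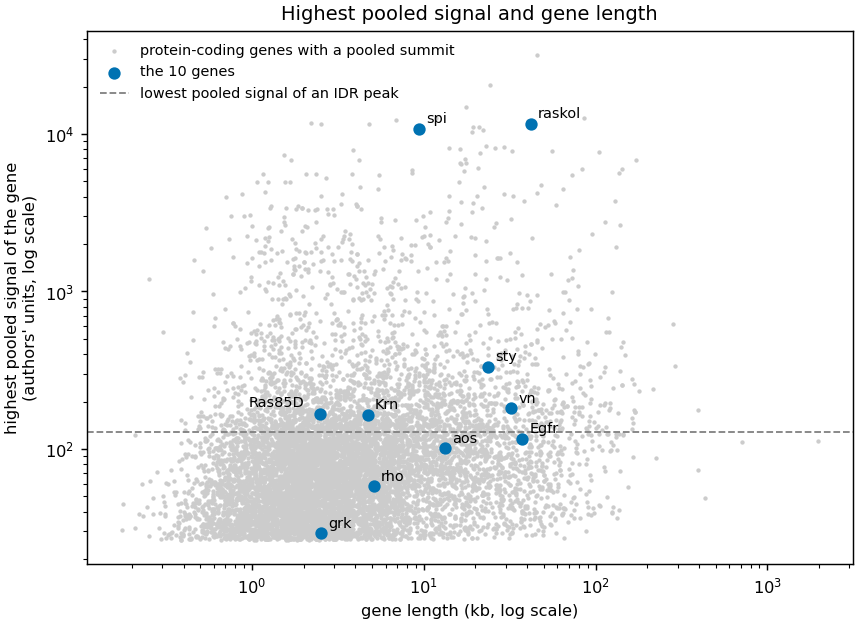
Highest pooled signal of each gene (authors' units, log scale) against gene length in kb (log scale) for all protein-coding genes with a pooled summit (grey) and the 10 genes (blue, named), with the lowest pooled signal of an IDR peak as a dashed line. The points of spi and raskol stand near the top for their lengths, at 10825 and 11655, and Egfr and aos stand just below the line at 116 and 101.

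Copies of GGAACG were counted along the genes whether or not a summit lay there. The 10 gene bodies and the 1 kb around their TSSs held 49 copies, or 2.68 per 10 kb, beside 2.59 per 10 kb over all chromosome arms. Of the 49, 4 lay within 50 bp of an IDR summit, and 7 within 50 bp of a pooled summit, where 1.64% and 4.47% of all copies did. The 4 were those of spi and raskol, 2 at the highest summit of each. IDR summits were also denser here, with 16 in the 183 kb of the 10 genes and 2886 in the 133.9 Mb of the arms. The arms also include sequence between genes, and raskol held 8 of the 16 and spi 4. The sequence was itself chosen from these peaks. Egfr held 8 copies but had 0 IDR summits, so no copy could lie near one of its own. At vn, 0 of 7 copies lay near its single IDR summit.

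A set of 10 6-mers that an earlier analysis of these peaks had found most enriched at summits was also read at each member summit, on both strands. Beside GGAACG these were CCGTTC and the sequence CGGAAC, then GTTCCA and the sequence GAACGA, then CGTTTC and the sequence ACGGAA, then GGAACA and the sequence AACGGA, and finally ACGGTC. They overlap each other, so a single stretch can hold several. They were chosen from these same peaks, so their presence at a strong summit is not independent of that choice. The shares given beside them are over IDR summits of any signal. The highest summit of raskol held 7 of the 10 kinds within 50 bp and that of spi 5, and at least 5 kinds were found at 6.69% of all IDR summits. The strong intron summit of raskol held 3 kinds, which were CGTTTC, read at 2 places, the sequence ACGGAA and the 6-mer AACGGA. These start 13 to 21 bp to the right of the summit in the window shown above, and at least 3 kinds were found at 17.4% of all IDR summits. The second spi summit, with a pooled signal of 2374, held 0 of the 10 kinds, whereas at least 1 was found at 43.2% of IDR summits.

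The rest of the pathway was read from a list of 34 further genes, all of which were found in the annotation, RasGAP1 under its older symbol Gap1. An IDR summit lay within 1 kb of a TSS of 13 of the 34 (38.2%), beside 16.0% of all protein-coding genes, and by the rule with gene bodies 18 of 34 (52.9%) had one, beside 17.9%. By length, the 18 were 2 of 8 genes under 5 kb, 8 of 17 genes of 5 to 20 kb and 8 of 9 genes of 20 kb and over. The list was chosen with earlier results of these data known, and no test was made.

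Among nuclear effectors, an IDR summit lay within 1 kb of a TSS at 4 of 7 genes (57.1%), beside 16.0% of all protein-coding genes. This was the highest share of the 5 groups, but each group held only 5 to 10 genes and no difference between them was tested. Of the 4, pnt, aop and ttk are over 20 kb long. The ETS activator gene pnt, the main transcriptional effector of the pathway, was the highest of the 34, with a signal of 4060 in replicate 1 and 3762 in replicate 2, and of 7786 in the pooled list. Its summit lay 129 bp from a TSS and had 2 copies of GGAACG within 50 bp. Of the highest IDR promoter summits of the 13 pathway genes, 4 held GGAACG, beside 14.7% of all IDR summits. The others were Sos, with 2 copies at a pooled signal of 236, PTP-ER with 1 at 978 and ttk with 1 at 139. The ETS repressor gene aop had a pooled signal of 187, the ubiquitin ligase gene sina 148 and the repressor gene ttk 139. Another 2 genes of this group, cic and edl, had IDR summits only in the gene body, with pooled signals of 176 and 149.

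The other groups each held 1 to 4 genes with an IDR summit within 1 kb of a TSS. Among 6 genes of ligand processing and transport, S, which encodes the Spitz trafficking factor Star, had a pooled promoter signal of 346, and stet, a Rhomboid family gene, had 222. Among 10 adaptors, Ras regulators and related GTPases, the promoter signals were 272 at the adaptor gene Shc, 236 at the exchange factor gene Sos, 188 at RasGAP1 and 132 at vap, both genes of GTPase-activating proteins. Among 6 genes of the kinase cascade, the phosphatase gene PTP-ER had 978 and rl, the gene of the MAP kinase, 150.3. Spred was the 1 of 5 feedback and turnover genes with an IDR promoter summit, at a signal of 156.

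**Figure D5:**
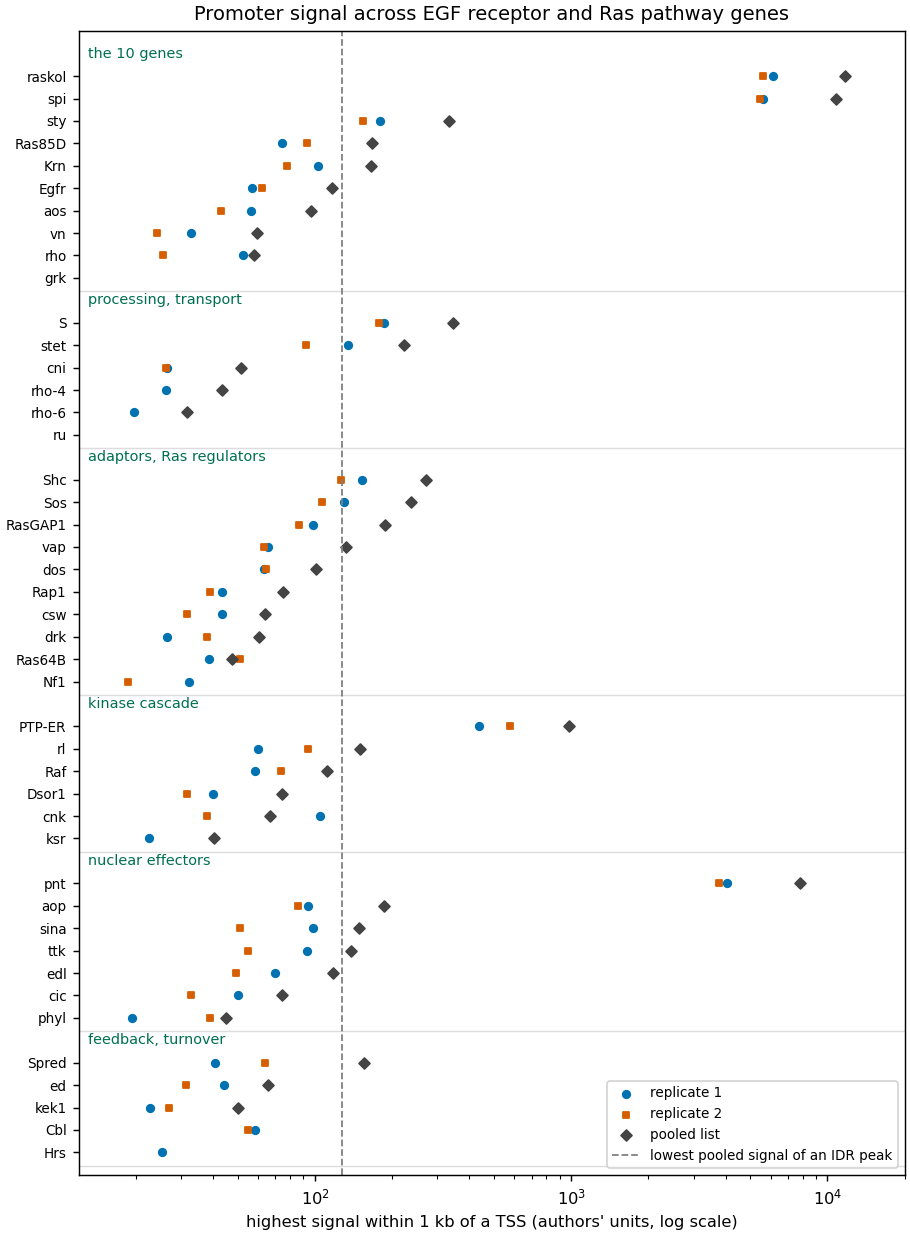
Highest signal within 1 kb of a TSS (authors' units, log scale) for the 10 genes and the 34 further pathway genes by group, in replicate 1 (circles), replicate 2 (squares) and the pooled list (diamonds), with the lowest pooled signal of an IDR peak as a dashed line. The genes raskol, spi and pnt lie between 7786 and 11655 in the pooled list, PTP-ER at 978, and all others at or below 346, and genes without a plotted point had no summit there.

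Several of these summits were shared with neighbours. How often all IDR promoter summits are shared is not given here, so sharing is not shown to be particular to these genes. Of the 13 genes, 6 had an IDR promoter summit that was also within 1 kb of the TSS of another protein-coding gene, and at 4 that TSS was the nearer. The summit was 411 bp from the TSS of PTP-ER and 173 bp from that of mahj, 139 bp from Shc and 113 bp from Atat, 612 bp from Sos and 52 bp from CG16888, and 977 bp from Spred and 69 bp from BEAF-32. At S and vap the own TSS was nearer, at 100 and 2 bp. Among the 10 genes, Krn, Ras85D and the first TSS of raskol shared a summit in this way, whereas no other gene had a TSS within 1 kb of the IDR summits of spi, sty or vn or of the strongest raskol summit.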

How the data were processed

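Whole-embryo ChIP-seq of 2 biological replicates was analysed from 4 deposited peak lists (dm6). Chromatin was sonicated to 200 to 800 bp, per the labels' protocols. Per the file notes, each relaxed list was made from the alignments of a replicate, or of both pooled, with 1 shared control alignment. Signal values per region and −log10 q-values are as the authors deposited them. The sources used here give no aligner, peak caller, version or IDR threshold. Labels give 2 biological replicates of 1 group. These lists hold no read counts, so depth is unknown.

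Summits were placed on the Ensembl release 115 annotation (BDGP6.54), and 1 to 3 rows per relaxed list on other sequences were left out. All 10 members are named, along with every one of 34 further pathway genes with an IDR summit within 1 kb of a TSS, neighbours sharing a summit, and CG15812. Genes named beyond this rule (cic, edl, msb1l, CG30289, CG33158, Ptp61F, Cbl, Hrs and Nf1) were chosen after their values were seen. Members and lists were chosen with earlier results of these data known. With 1 group and no counts, no test was made, and counts stand beside those over all protein-coding genes. A replicate summit within 200 bp matched a pooled summit. Python 3.11.15, pandas 2.3.3 and numpy 2.4.6 were used, and gene assignment was tested on simulated data. Alternatives changed the TSS distance, the TSSs used, the list, the summit and motif windows and the replicate.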

Additional observations from a re-analysis of the deposited data

How the results depend on the processing

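The count of 6 of the 10 genes with an IDR summit was also 6 with a TSS distance of 500 bp or 2 kb, with the most upstream TSS only and with any base of the called region. It was 3 in the 1443 IDR peaks of highest signal, which left spi, sty and raskol, and 10 in the whole pooled list. Within 1 kb of a TSS the count of 5 was 3 at 500 bp, 3 with the most upstream TSS only and 3 in the 1443 peaks. The promoter share of all genes is not given here for these settings. In those 1443 peaks the 16 summits became 8, and the 13 pathway genes with a summit within 1 kb of a TSS became 6. By the rule with gene bodies, the share of all genes, 17.9%, became 9.51%. That share was 16.5% at 500 bp, 20.4% at 2 kb and 18.7% by region overlap. With a single replicate the counts were 5 to 7 genes, 4 to 6 promoter genes, 14 to 19 summits and 11 to 13 pathway genes. The replicate difference of 0.18 log2 was -0.031 after the median over all IDR summits was subtracted, and at vn the highest signal of 181 was 59.3 within 1 kb of the TSS. Summits with GGAACG numbered 2 to 4 with a single replicate and were 4 without replicate 1, where Egfr and the third TSS of raskol were added. The highest −log10 q-value was shared by all member IDR summits and ranks nothing among them. No paired analysis was possible because both replicates belong to 1 group and no test was made. Peak lists hold no read counts, so a member without an IDR summit was below that list's limit and was not shown to be unbound.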

Other observations

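At sty, a summit 9019 bp downstream of the second TSS had a signal of 58.0 in replicate 2 and 75.7 in the pooled list, and no replicate 1 summit lay within 200 bp. It was named after its values were seen.

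Of the 113 pooled summits of the 10 genes, 9 lay in coding exons. At vn a pooled summit in a coding exon, 3309 bp downstream of the TSS, held GGAACG within 50 bp at a pooled signal of 34.1, with 17.6 in replicate 2 and no replicate 1 summit within 200 bp. In the pathway list, 3 of the 34 genes, Cbl, Hrs and Nf1, had no pooled summit by the rule, although Cbl had a promoter signal of 58.4 in replicate 1 and 54.5 in replicate 2.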
